A study of Homo sapiens with 5 samples.

Results

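The peaks described here are strong SF-1 peaks found only in the list made from cells overexpressing the factor and immunoprecipitated with the Millipore antibody. Strong means a rank of 3000 or less, and whether each peak is a site of SF-1 binding was not tested. Chromatin immunoprecipitation sequencing (ChIP-seq) had been carried out in H295R/TR SF-1 cells, a derivative of the human adrenocortical tumor line H295R in which doxycycline induces SF-1. All groups shared this cell line, which also makes SF-1 of its own. There were 4 peak lists, for basal SF-1 (no doxycycline) and overexpressed SF-1 (doxycycline for 3 days), each with the Millipore and the Perseus anti-SF-1 antibody. Each list had been called on 3 pooled libraries, against input DNA from 2 libraries. No error between replicates could therefore be given, and read depth is unknown because the lists carry no read counts. A peak was a member if its rank in the overexpressed Millipore list was 3000 or less and it overlapped no peak of the other 3 lists by 1 bp or more. This rule gave 2061 unique peaks among the 3000 best-ranked, out of 30372 peaks in all 4 lists, and the other 939 of the 3000 are called shared peaks below. The rank and the overlaps were measured values that chose the members, so they are described without a test.

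SF-1 (NR5A1) is an orphan nuclear receptor that binds DNA as a monomer and is needed for adrenal and gonadal development. It drives transcription of the genes of steroid hormone synthesis. It recognizes an extended site, in which the nuclear receptor core is preceded by bases that contact a region next to the DNA-binding domain. NRSF/REST is a zinc finger repressor that silences neuronal genes outside the nervous system, and binds a long bipartite element.

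The sequences of several members are shown because they carry the main sequence finding, the presence or lack of an SF-1 consensus. The consensus searched has 9 bases, read as C or T, then CAAGG, then C or T, then C, then A or G, on either strand, which allows 8 forms. The sites below are from the unique peaks with the best ranks that hold it, with 10 bases to each side (hg19, read from GRCh37, 5′ to 3′ on the strand of the site), and capitals mark the consensus.
Rank 17, intron of GUCA1ANB, chr6:42124512-42124540, plus strand: agccacttgcCCAAGGTCGcctgacctgt
Rank 86, intergenic near GDF2, chr10:48407180-48407208, minus strand: agtgtgtcagCCAAGGTCAgagaaactgc
Rank 87, intergenic near FAM78A, chr9:134155046-134155074, plus strand: tgggctctctTCAAGGCCAgctgggagtg
Rank 102, intron of VAV2, chr9:136741576-136741604, plus strand: agccagtcagCCAAGGCCAggagaacgtg
Rank 176, intron of FAM180A, chr7:135425425-135425453, plus strand: tctgaagagaCCAAGGTCAtcatgttctt

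A whole peak with the consensus and a whole peak without it are shown for comparison, on the plus strand of hg19, with capitals as above.
Rank 86, chr10:48407001-48407249: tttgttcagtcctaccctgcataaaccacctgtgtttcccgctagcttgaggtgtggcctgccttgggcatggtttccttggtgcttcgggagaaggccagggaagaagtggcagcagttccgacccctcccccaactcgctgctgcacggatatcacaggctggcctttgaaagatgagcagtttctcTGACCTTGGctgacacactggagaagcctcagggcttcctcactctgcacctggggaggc
Rank 38, intron of PKD1L1, chr7:47987051-47987249: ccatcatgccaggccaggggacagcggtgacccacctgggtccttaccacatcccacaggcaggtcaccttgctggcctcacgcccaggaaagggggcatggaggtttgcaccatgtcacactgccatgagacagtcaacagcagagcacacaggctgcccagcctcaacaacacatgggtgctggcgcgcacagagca

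Sites with the NRSF/REST consensus were few among the unique peaks, and 3 of them are shown because of the genes they lie at. Capitals mark bases equal to the consensus at its 19 fixed positions, and lower case within the element marks the spacer or a mismatch.
Rank 148, untranslated part of an exon of CHRNB2, chr1:154540426-154540454, plus strand: cggcTTCAGCACCacGGACAGCGCCccac
Rank 1371, intron of GRIA2, chr4:158141536-158141564, minus strand: gcctTTCAGCACCgaGGACAGCGCCtcgc
Rank 397, intron of POU2F2, chr19:42647694-42647722, minus strand: ggtcgTtAGtACCctGGACAGCGgCcttg

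The share of peaks that were unique grew with rank, since the best-ranked peaks were mostly found elsewhere. Of the 300 best-ranked peaks, 87 were unique (29.0%). Of those ranked 2701 to 3000, 244 were unique (81.3%). Over the 3000 strong peaks the unique share was 68.7%, and over all 11910 peaks of the list it was 83.4%. The best rank of a unique peak was 17 and the median 1706, against 1 and 954 for shared peaks. At the rank limit, the unique peaks of rank 2999 (chr3:46902601-46902899, intron of MYL3) and 3000 (chr5:132611801-132612049, intron of FSTL4) were members. The peaks of rank 3001 (chr14:57482101-57482299) and 3002 (chr14:21373751-21373999) also overlapped no other list and were left out by rank alone.

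**Figure D1:**
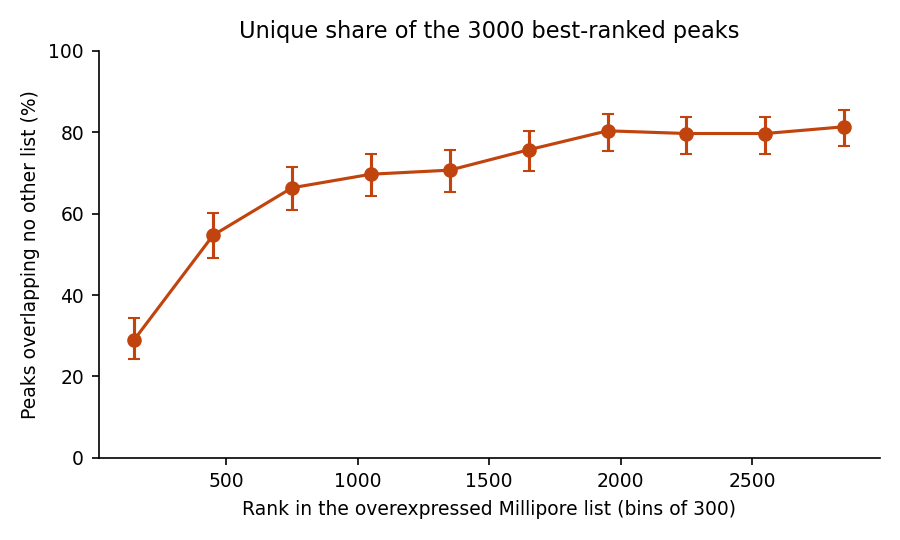
Share of the 3000 best-ranked overexpressed Millipore peaks that overlapped no other list (y axis, %) in bins of 300 ranks (x axis), with 95% Wilson intervals as bars. The share was 29.0% in the first bin and 81.3% in the last.

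At the limit of overlap, the smallest overlap of a shared peak was 49 bp and 11 shared peaks overlapped by 50 bp or less. Conversely, 13 unique peaks were separated from a peak of another list by a single base, which is the spacing left by the 50 bp grid of the peak starts. A further group lay near: 110 unique peaks (5.34%) had a peak of another list within 500 bp. Most did not, and the median gap to the nearest peak of any other list was 32651 bp. By list, the median gap was 63101 bp to the overexpressed Perseus list, 84351 bp to the basal Perseus list and 136301 bp to the basal Millipore list, which hold 7453, 6616 and 4393 peaks. Unique peaks were narrower than shared ones, with a median width of 199 bp against 299 bp.

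The unique peaks held the SF-1 consensus less often than the shared peaks. It was present in 202 of 2061 unique peaks (9.80%; 95% Wilson interval, 8.59 to 11.2) and in 330 of 939 shared peaks (35.1%; 32.2 to 38.3). The difference, unique minus shared, was -25.3 percentage points (95% Newcombe interval, -28.7 to -22.1). All such intervals treat peaks as independent and cover counting error only, without error between libraries. In strata of peak width the difference was -21.4 points (-24.9 to -17.8), in strata of rank -23.6 (-27.1 to -20.1) and in strata of width and rank together -21.3 (-25.0 to -17.6). It was -14.6 points (-17.8 to -11.6) for the AAGGTCA core and -13.9 points (-16.6 to -11.3) in the central 100 bp of every peak.

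The unique peaks still held the consensus more often than the sequence around them. In windows of the same width 5 kb to each side, the consensus was present in 115 of 4117 (2.79%). Windows that fell on other peaks were not left out, and their number was not counted. The difference from these windows was 7.01 points (5.68 to 8.44), which is a ratio of 3.51, whereas the ratio was 16.1 for shared peaks and their own windows. Intervals of differences from windows treat peaks and windows as independent, although up to 2 windows belonged to each peak. The windows were poorer in GC, with a mean of 46.9% against 54.97% in the unique peaks, and the part of base composition in the difference was not tested. With up to 1 mismatch, 47.6% of unique peaks, 78.3% of shared peaks and 30.4% of windows had a match.

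Among unique peaks the consensus was most frequent at the top of the list. It was found in 17 of the 87 unique peaks ranked 1 to 300 (19.5%; 12.6 to 29.1). In the other bins of 300 ranks the share ran from 5.44% to 12.7%. The interval of the first bin overlapped those of several later bins. Of the 202 unique peaks with the consensus, 26 (12.9%) had 2 copies or more, against 71 of 330 shared peaks (21.5%). Unique peaks held 234 copies, most often as CCAAGGTCA (74 copies) and CCAAGGCCA (69 copies). The forms with T at the variable core position made up 51.3% of copies in unique peaks and 53.3% in shared peaks, so their intervals, 44.9 to 57.6 and 48.8 to 57.9, overlapped.

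Copies of the consensus were concentrated toward the centres of both sets of peaks, more steeply in the shared ones. Within 50 bp of the centre there were 0.510 matches per kb in unique peaks (95% exact Poisson interval, 0.417 to 0.617) and 2.39 per kb in shared peaks (2.08 to 2.72). Between 450 and 500 bp from the centre the values were 0.189 (0.135 to 0.259) and 0.213 (0.130 to 0.329), where the intervals overlapped.

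**Figure D2:**
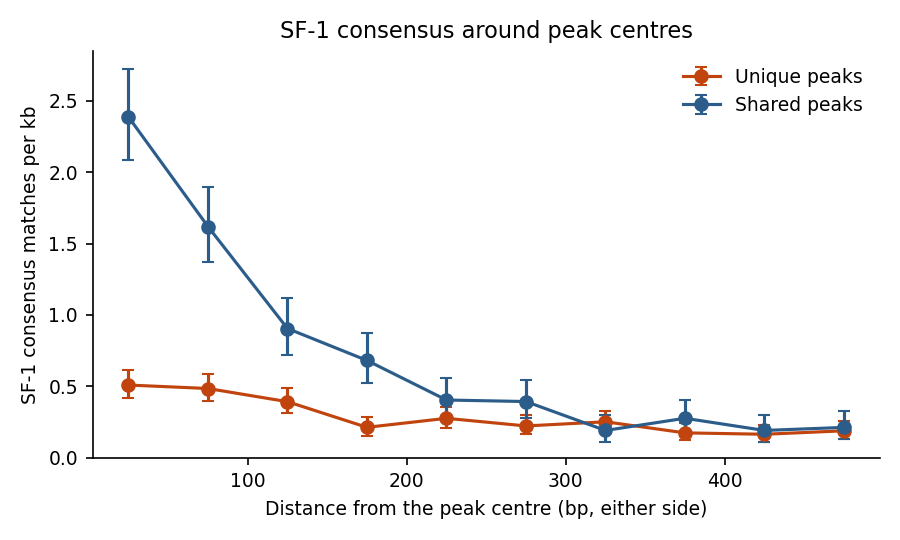
Matches to the SF-1 consensus per kb (y axis) against distance from the peak centre in steps of 50 bp, both sides combined (x axis), for unique and shared peaks, with 95% Poisson intervals as bars. The sets differ at the centre (0.510 and 2.39 matches per kb) and have overlapping intervals at 450 to 500 bp.

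The NRSF/REST consensus, a bipartite element with 19 fixed positions around a spacer of 2 bases, was searched with at most 4 mismatches. It was found in 14 unique peaks (0.679%; 0.405 to 1.14) and in 41 shared peaks (4.37%; 3.24 to 5.87). The difference was -3.69 points (-5.22 to -2.47). It was -1.89 points (-3.06 to -0.713) in strata of rank, -2.19 (-3.46 to -0.918) in strata of width and -1.25 (-2.38 to -0.121) in strata of both. Of the 41 shared peaks, 33 were among the 107 peaks shared with the basal Millipore list alone (30.8%; 22.9 to 40.1). When the shared peaks were limited to those found with the Perseus antibody, the difference was -0.282 points (-1.25 to 0.376), and against all 292 found in the basal Millipore list it was -12.3 points (-16.7 to -8.92). Only 2 unique peaks matched the element without a mismatch. One element lay in an exon of CHRNB2, which encodes a neuronal nicotinic acetylcholine receptor subunit (rank 148), with its middle 186 bp downstream of the start. The other lay in an intron of GRIA2, which encodes an AMPA glutamate receptor subunit (rank 1371). The other named peaks with it lay, among others, near SCRT1 (1 mismatch, peak centre 281 bp upstream, rank 833) and in POU2F2, a lymphoid transcription factor gene (4 mismatches, rank 397), and 2 of the 14 also held the SF-1 consensus.

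Against the windows around them, the unique peaks held the NRSF/REST consensus slightly more often. The windows had it in 8 of 4117 (0.194%), a difference of 0.485 points (0.152 to 0.953). The 95% interval widened for 13 motifs left out 0, but the interval widened for 26 comparisons, a count chosen after the data were seen, ran from -0.0344 to 1.33. With at most 3 mismatches the difference was 0.121 points (-0.0632 to 0.429).

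Among 13 sequences searched, 6 were less frequent in unique than in shared peaks by the interval widened for 13 comparisons, and none was more frequent. Beside both SF-1 forms and NRSF/REST these were the GC box (GGGCGG), CRE (TGACGTCA) and ETS (CCGGAAGT). CRE was present in 3 unique and 10 shared peaks, and ETS in 7 and 15. Unique peaks were narrower than shared ones and poorer in GC (mean 54.97% against 59.0%). The part of width and base composition in the GC box, CRE and ETS differences was not tested. The GC box, bound by Sp family factors, was present in 11.8% of unique peaks, 30.1% of shared peaks and 6.44% of windows. AP-1 sites (TGANTCA) were present in 6.55% of unique peaks, 7.03% of shared peaks and 6.51% of windows, with an interval of the difference from windows of -1.23 to 1.40 points. The GATA element (AGATAA) was less frequent in unique peaks (6.16%) than in windows (11.7%), a difference of -5.50 points (-6.89 to -4.03). Shared peaks had it in 7.77%, against 14.7% of their own windows. The E-box (CACGTG) was more frequent in unique peaks (4.85%) than in windows (3.04%), by 1.82 points (0.796 to 2.94). Shared peaks had it in 6.18%, against 4.74% of their own windows. The windows were poorer in GC than the peaks, and the part of base composition in these differences from windows was not tested.

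**Figure D3:**
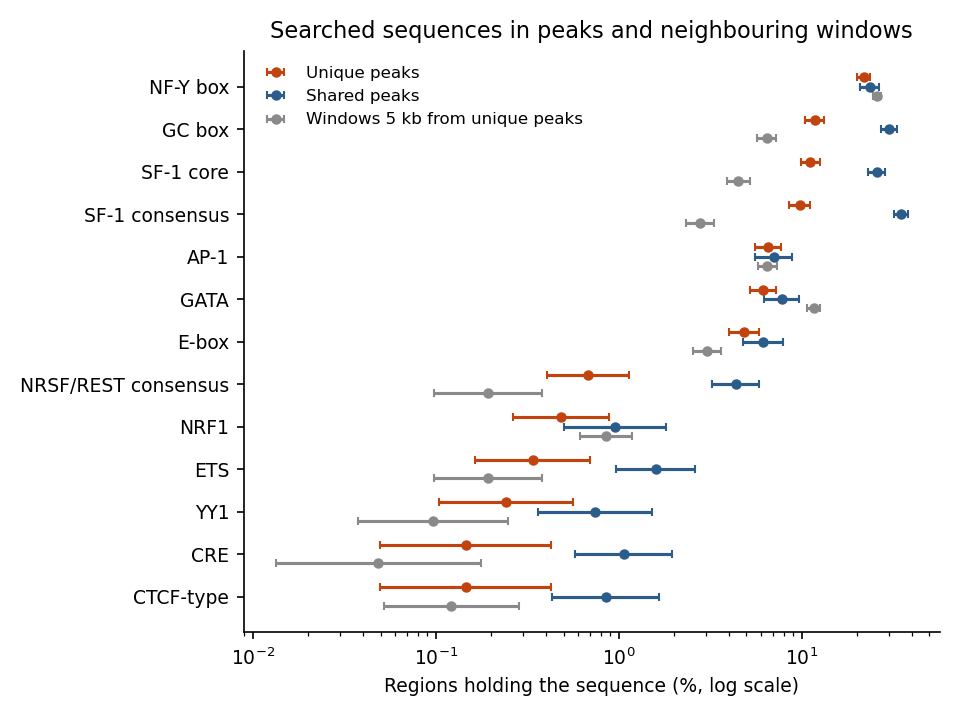
Share of unique peaks, shared peaks and windows 5 kb from unique peaks that held each of 13 searched sequences (x axis, %, log scale), with 95% Wilson intervals as bars. SF-1 core is AAGGTCA and NF-Y box is CCAAT. The SF-1 consensus was at 9.80%, 35.1% and 2.79% in the 3 sets, and AP-1 at 6.55%, 7.03% and 6.51%.

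Words of 6 bases that were more frequent in unique peaks than in windows are given as a description, since they were chosen among all such words. The largest differences were for CAGGGC (37.2% of unique peaks, 49.7% of shared peaks, 18.8% of windows) and CCAGGG (38.8%, 50.2% and 22.0%). Among words of 8 bases, added after the data were seen, the highest ratio to windows among the top 20 was that of CCAAGGTC, a part of the SF-1 consensus (5.77% of unique peaks, 14.9% of shared peaks, 1.29% of windows).

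Unique peaks lay at promoters less often than shared peaks. A transcription start site (TSS) of a protein-coding gene was within 1 kb of the peak centre for 189 unique peaks (9.17%) and 217 shared peaks (23.1%). The difference was -13.9 points (-17.0 to -11.0). Within 10 kb the shares were 28.0% and 43.6%, a difference of -15.6 points (-19.3 to -11.9). The median distance to a TSS was 32263 bp in unique and 16240 bp in shared peaks. Both differences depended on which list the shared peaks were shared with: against the 292 shared peaks found in the basal Millipore list, they were -2.13 points (-6.44 to 1.28) and -4.20 points (-10.1 to 1.27). In strata of peak GC content the difference was -5.29 points (-7.94 to -2.65) within 1 kb and -6.36 points (-9.89 to -2.83) within 10 kb.

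**Figure D4:**
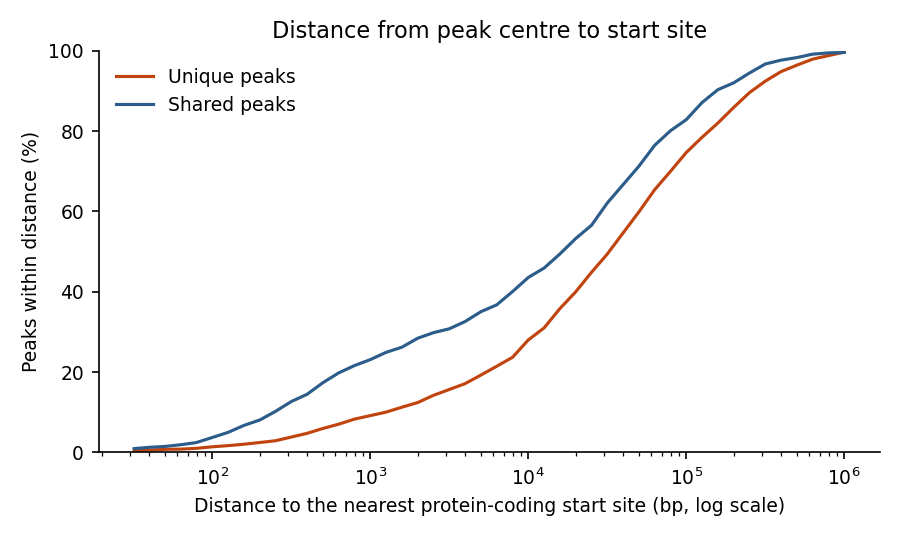
Cumulative share of unique and shared peaks (y axis, %) within a given distance of the nearest protein-coding start site (x axis, bp, log scale). At 1 kb the shares were 9.17% and 23.1%, and at 10 kb 28.0% and 43.6%.

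Most unique peaks were inside genes. Their centre was in an intron for 1109 (53.8%), in an exon for 349 (16.9%) and between genes for 603 (29.3%), against 50.5%, 26.4% and 23.1% of shared peaks. Gene deserts, more than 100 kb from any gene, held 27 unique (1.31%) and 3 shared peaks (0.319%). That difference of 0.991 points (0.252 to 1.62) did not leave out 0 when widened for the 21 shares compared. With protein-coding gene bodies only, it was 5.57 points (3.27 to 7.69).

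Base composition also differed. A peak GC content of 60% or more was found in 573 unique peaks (27.8%) and 460 shared peaks (49.0%), a difference of -21.2 points (-24.9 to -17.4). CpG-island-like sequence, with GC of at least 50% and an observed to expected CpG ratio of at least 0.6, made up 9.12% of unique and 29.3% of shared peaks. Against the shared peaks of the basal Millipore list the difference in high GC content was -4.05 points (-9.91 to 1.40).

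Highly repeated sequence was rare in the unique peaks. At least 1 word of 25 bases found more than once in the genome was present in 16.7% of unique and 21.9% of shared peaks. In 7 of them (0.340%) over 50% of the words occurred more than once, against 11 shared peaks (1.17%). Within 1 Mb of a long assembly gap there were 20 unique peaks (0.970%) and 13 shared peaks (1.38%). No mitochondrial word was found in 2061 unique peaks, which allows a share of up to 0.146% by the limit of 3 counts and 0.186% by the Wilson interval.

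Of the 10 best-ranked unique peaks, 1 lay within 1 kb of a TSS, in PKD1L1 (rank 38, shown above). Distances of peaks to a TSS are from the peak centre. The first, of rank 17 (chr6:42124501-42124799), held the SF-1 consensus, and the nearest peak of another list was 56151 bp away. In the peak of rank 34, 4207 bp upstream of SPRR1A, 35.4% of 25-base words were repeated in the genome, and the part of this in its rank was not tested. Rank 42 lay 22840 bp upstream of RAMP3, which encodes a partner protein of calcitonin-family receptors. Rank 79 lay in an intron of SULT2B1, a sulfotransferase that acts on cholesterol and hydroxysteroids. Rank 81 lay 9390 bp upstream of DUSP5, a phosphatase of ERK. Rank 86 lay 9783 bp from the start of GDF2, a bone morphogenetic protein, and it and rank 17 were the members of these 10 that held the consensus. Farther down, peaks with the consensus lay in introns of ACACB, a mitochondrial acetyl-CoA carboxylase (rank 188), and GRIK4, a kainate receptor subunit (rank 218).

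The 10 best-ranked unique peaks within 1 kb of a TSS included those at POLE2, a DNA polymerase epsilon subunit (rank 237, 10 bp upstream), MRPS26, a mitochondrial ribosomal protein (rank 309), ALDH3A2, a fatty aldehyde dehydrogenase (rank 295), and CD55, a complement regulator (rank 332). The SF-1 consensus was present in 9 of the 189 unique peaks within 1 kb (4.76%; 2.53 to 8.80) and in 145 of the 1484 farther than 10 kb (9.77%; 8.36 to 11.4). Shared peaks differed in the same direction, with 45 of 217 within 1 kb (20.7%) and 216 of 530 farther than 10 kb (40.75%).

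A few genes of steroid production had a unique peak nearby. Over all genes, a unique peak lay within 10 kb of the TSS of 717 of 20163 protein-coding genes (3.56%). In the list of steroid synthesis genes these were 3 of 19 (15.8%), namely CYP11A1, the side-chain cleavage enzyme (rank 1308, 5713 bp upstream), POR, the electron donor of microsomal cytochromes P450 (rank 1942, 307 bp downstream), and HSD17B3, which makes testosterone (rank 2324, 2317 bp upstream). None of these 3 peaks held the SF-1 consensus. Of 20 cholesterol genes only LIPE, hormone-sensitive lipase, had one (rank 837). Of 25 adrenal regulators these were NR4A3, an orphan nuclear receptor (rank 1714, 412 bp upstream), and VAV2 (rank 2841). Of 20 REST target genes only GRIN1, an NMDA receptor subunit, had one (rank 2712), and that peak did not hold the NRSF/REST consensus. GRIA2, also on that list, held the unique peak of rank 1371 with the element, but its centre was 16216 bp from the TSS. A shared peak lay within 10 kb of the TSS of 3 of these 20 genes and 2 of 19 steroid synthesis genes. It was so for 1 of 25 adrenal regulators, no cholesterol gene and 2.56% of all protein-coding genes. With lists this short the intervals are wide, for example 5.52% to 37.6% for steroid synthesis, and nothing particular to a list is read from them. Of the 717 genes with a unique peak within 10 kb, 310 (43.2%) also had a peak of another peak list within 10 kb. The share of all protein-coding genes with such a peak was not measured, so nothing particular to the 717 is read from this count. At the list genes named for a unique peak within 10 kb, the gap to the nearest peak of another list varied. It ran from 601 bp (NR4A3 and VAV2) to 25051 bp (LIPE). For the unique peak in GRIA2 this gap was 56751 bp.

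Some genes held several unique peaks. They were picked after the counts were seen, so they are a description. VAV2 (chr9:136627016-136857726) held 10, of ranks 102 to 2841, and all peaks in its body numbered 22 with overexpressed Millipore, 0 with basal Millipore and 3 with Perseus at either dosage. CACNA2D2, which encodes an auxiliary calcium channel subunit (chr3:50400044-50541675), held 6. A further 7 genes held 4 each, namely CACNA1C, CDH23, DRAIC, GRIK4, MEGF11, POR and STX17-DT. Each of these 7 also held a peak of another list. Their lengths ran from 87.7 kb (POR) to 727 kb (CACNA1C), and the counts were not adjusted for gene length. Chromosome 9, with 4.56% of the genome length and 9.16% of all overexpressed Millipore peaks, carried 254 unique peaks (12.3%) and 126 shared peaks (13.4%). The share did not differ detectably between the sets (difference -1.09 points, -3.79 to 1.43). Chromosome 19 was denser in unique peaks, with 2.215 per Mb against 1.799 per Mb on chromosome 9. It carried 6.36% of unique peaks and 6.69% of all overexpressed Millipore peaks.

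The strong unique peaks of the other lists, selected by the same rule, offer the most alike sets. There were 2246 in the basal Millipore, 1486 in the basal Perseus and 1443 in the overexpressed Perseus list. The overexpressed Millipore peaks were at promoters (within 1 kb) more often than those of the basal Millipore list (2.72%), by 6.45 points (5.06 to 7.91), and less often than those of the basal Perseus (27.7%) and overexpressed Perseus lists (28.6%), by -18.5 points (-21.1 to -15.9) and -19.5 points (-22.1 to -16.8). Mean GC was 54.97% in the overexpressed Millipore set, 44.7% in the basal Millipore set, 51.1% in the basal Perseus set and 54.6% in the overexpressed Perseus set. The SF-1 consensus was present in 8.55%, 19.9% and 14.1% of the basal Millipore, basal Perseus and overexpressed Perseus peaks. The overexpressed Millipore peaks differed in this from the basal Millipore ones by 1.25 points (-0.472 to 2.99), an interval that holds 0, and from the Perseus sets by -10.1 points (-12.5 to -7.67) and -4.27 points (-6.51 to -2.09). A rank of 3000 took in 25.2% of the overexpressed Millipore list and 68.3% of the basal Millipore list, so equal ranks are not equal strengths. It took in 45.3% of the basal Perseus and 40.25% of the overexpressed Perseus list. The median width of the strong unique peaks was 149 bp in the basal Millipore set and 199 bp in each other set. These differences between lists were not adjusted for width.

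**Figure D5:**
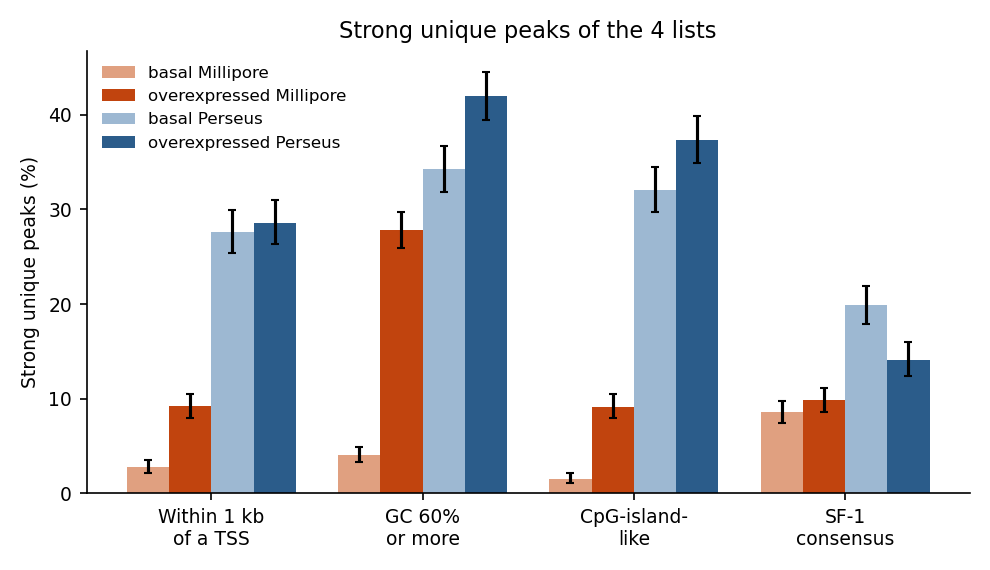
Share of the strong unique peaks of each of the 4 lists (y axis, %) that lay within 1 kb of a TSS, had a GC content of 60% or more, were CpG-island-like or held the SF-1 consensus (x axis), with 95% Wilson intervals as bars. For promoters the overexpressed Millipore set (9.17%) was between the basal Millipore set (2.72%) and both Perseus sets (27.7% and 28.6%).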

How the data were processed

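Per the study's methods, the authors mapped reads to hg19 with ELAND and called peaks with CisGenome SeqPeak against input, on 3 libraries together; CASAVA 1.6 appears in the submitters' processing notes. The deposited lists give each peak's position on a 50 bp grid, its rank and a score. The score deposited by the authors is 1000 in every row and was not used; the quantity behind the rank is not given in the sources used here. Members and gene lists were chosen with earlier results of these data known.

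Peak sequence was read from GRCh37 (samtools 1.23.1, pysam 0.24.0) and genes from GENCODE version 44 lifted to it. Shares were given Wilson intervals and differences Newcombe intervals (statsmodels 0.14.6), or Mantel-Haenszel differences in strata; no p-value was computed. Motif intervals were also widened for 13 motifs and other shares for 21. Search patterns came from general knowledge, not from the deposited files. The steps were tested on simulated data. The planned share of repeat-masked peaks could not be had, as the reference was not masked; repeated 25-base words were used instead. Peaks named were the 10 best-ranked unique, the 10 best-ranked with the SF-1 consensus, up to 10 with the NRSF/REST consensus, the 10 best-ranked within 1 kb of a TSS, those at the rank limit, the 5 best-ranked shared and list genes within 10 kb; not all are printed.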

Additional observations from a re-analysis of the deposited data

How the results depend on the processing

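All 86 alternative values of the 8 differences kept their direction, and for 80 of them the interval also left out 0, as in the values reported. The unique peaks numbered 871 with a rank limit of 1500 and 4599 with 6000. Against the 292 shared peaks found in the basal Millipore list, 4 differences had intervals that held 0: -2.13 points for a TSS within 1 kb, -4.20 for a TSS within 10 kb, 0.625 for more than 100 kb from any gene and -4.05 for GC of 60% or more. The NRSF/REST difference from shared peaks was -0.282 points with peaks shared with the Perseus antibody, and that from windows 0.121 points with at most 3 mismatches, both with intervals that held 0, and 1.16 with at most 5. The cause was not tested. The SF-1 consensus difference from shared peaks ran from -35.8 to -13.9 points and that from windows from 6.37 to 17.2. The strata of width and rank together were chosen after the data were seen. The share of masked sequence was not run, since the reference is not masked. No analysis paired by replicate was possible because every list was called on pooled libraries. For the same reason no replicate could be left out. The pairing of windows with their own peaks was not used. Depth is unknown.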

Other observations

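Gene families gathered by symbol were not described above. A unique peak lay within 10 kb of the TSS of 18 of 386 solute carrier genes (4.66%), 13 of 516 zinc finger genes (2.52%), 4 of 39 genes of the HOX clusters (10.3%), 2 of 95 potassium channel genes (2.11%) and 2 of 102 ribosomal protein genes (1.96%), beside 3.56% of all protein-coding genes. The HOX genes were HOXA3, HOXA4, HOXA6 and HOXA7, which are neighbours in one cluster and are not independent. No histone gene of 90 had one, with an upper Wilson limit of 4.09% that takes in the share of all genes. A shared peak lay within 10 kb of 5 of the 90 (5.56%), beside 2.56% of all protein-coding genes, and many histone genes lie in clusters and are not independent.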
